A study of Mus musculus with 6 samples.

Results

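The genes described here are 10 chaperones and folding factors of the endoplasmic reticulum (ER) that belong to the unfolded protein response, namely Hspa5, Hsp90b1, Pdia3, Pdia4, Pdia6, Creld2, Manf, Sdf2l1, Dnajb11 and Dnajc3. They were taken by symbol, with earlier results of these data known, and all 10 were among the 23284 genes counted. The data are RNA-seq read counts from whole liver of C57BL6/J mice aged 8 weeks, 3 libraries from wild type (WT1, WT2, WT3) and 3 from Trim24 -/- knockout mice (KO1, KO2, KO3), with no treatment named. Values per library are given in this order of replicate numbers. Trim24 encodes a nuclear receptor cofactor of the TIF1 family, and the series is titled as a study of hepatic fat and liver cancer in mice that lack it. How the allele was made, the sex of the mice and whether each library came from a separate mouse are not given in the sources used here, so the p-values rest on the spread among libraries, which may be technical.

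Proteins that enter the ER are folded by lumenal chaperones, and when unfolded protein builds up there, the sensors ATF6, IRE1 (Ern1) and PERK (Eif2ak3) start the unfolded protein response. Cleaved ATF6 and the spliced form of XBP1 then bind ER stress elements (ERSE), together with the CCAAT-binding factor NF-Y, in front of chaperone genes. Hepatocytes secrete most plasma proteins and carry a large ER, so they express these chaperones at all times.

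Reads counted in genes came to between 1495583 and 2872421 per library, with KO3 the deepest, and made up 4.22% to 6.69% of all counted reads. Trim24 itself had 31, 45 and 44 reads in WT1 to WT3 and 3, 2 and 2 reads in KO1 to KO3. Of 9180 genes tested with edgeR, the knockout had 283 called higher (3.08%) and 243 called lower (2.65%) at an adjusted p under 0.05, against 373 and 172 when no scaling factor was used. Markers of hepatocytes were abundant in every library, with Alb highest. KO1 and KO3 stood apart from the other libraries in holding pancreatic acinar transcripts, whose levels are given beside the results they accompany.

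The ER stress element is CCAAT followed, after 9 bases of any kind, by CCACG, and a shorter form, ERSE-II, is ATTGG followed, after 1 base of any kind, by CCACG. Both were searched, on both strands and after the expression values had been seen, in the RefSeq windows (GRCm38.p6) from 250 bases before to 50 bases after each gene's start. Windows were found for 9 of the 10 genes and not for Manf. An exact ERSE lay in 5 of the 9 and an ERSE-II in 1, against 39 (0.119%) and 12 (0.0365%) of all 32851 windows of that length. Because these elements were known in front of chaperone genes, this contrast with all windows is a description and not a test. The windows with a match are shown because the element recurs among them. Each is given 5′ to 3′ on the gene's own strand, 250 bases long, with the matches in capitals.
Hspa5, chr2:34771840-34772089 (+ strand): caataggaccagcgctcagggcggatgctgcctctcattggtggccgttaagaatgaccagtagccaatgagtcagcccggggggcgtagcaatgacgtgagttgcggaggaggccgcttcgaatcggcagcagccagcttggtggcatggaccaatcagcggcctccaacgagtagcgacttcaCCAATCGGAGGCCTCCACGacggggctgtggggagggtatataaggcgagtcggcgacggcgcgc
Hsp90b1, chr10:86705445-86705694 (- strand): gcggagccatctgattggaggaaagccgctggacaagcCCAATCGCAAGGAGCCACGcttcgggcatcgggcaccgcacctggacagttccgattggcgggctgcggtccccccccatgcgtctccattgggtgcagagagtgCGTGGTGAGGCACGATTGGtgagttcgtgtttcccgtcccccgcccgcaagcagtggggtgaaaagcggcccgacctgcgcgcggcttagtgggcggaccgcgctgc
Pdia6, chr12:17266339-17266588 (+ strand): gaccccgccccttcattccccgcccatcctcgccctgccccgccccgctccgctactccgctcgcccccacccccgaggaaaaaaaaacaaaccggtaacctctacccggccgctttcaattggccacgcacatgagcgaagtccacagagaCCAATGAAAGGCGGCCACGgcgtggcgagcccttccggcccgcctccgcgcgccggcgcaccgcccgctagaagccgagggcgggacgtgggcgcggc
Creld2, chr15:88819396-88819645 (+ strand): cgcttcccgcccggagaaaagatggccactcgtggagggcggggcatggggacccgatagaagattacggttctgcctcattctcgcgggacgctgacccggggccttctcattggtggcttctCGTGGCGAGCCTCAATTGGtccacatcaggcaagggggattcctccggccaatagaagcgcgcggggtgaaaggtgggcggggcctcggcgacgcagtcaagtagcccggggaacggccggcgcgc
Dnajb11, chr16:22857613-22857862 (+ strand): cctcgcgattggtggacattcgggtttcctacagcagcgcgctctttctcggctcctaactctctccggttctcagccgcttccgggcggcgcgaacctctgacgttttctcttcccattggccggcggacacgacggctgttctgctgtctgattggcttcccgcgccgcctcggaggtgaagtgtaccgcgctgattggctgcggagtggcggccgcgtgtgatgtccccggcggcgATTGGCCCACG
Dnajc3, chr14:118937682-118937931 (+ strand): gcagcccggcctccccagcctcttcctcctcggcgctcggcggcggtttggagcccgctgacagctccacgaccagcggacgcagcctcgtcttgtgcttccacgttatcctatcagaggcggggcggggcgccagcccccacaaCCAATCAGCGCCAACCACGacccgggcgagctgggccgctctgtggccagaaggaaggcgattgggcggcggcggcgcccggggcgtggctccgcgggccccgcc

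In Hspa5 the match ran from 65 to 47 bases before the start, in Pdia6 from 98 to 80, in Dnajc3 from 105 to 87 and in Creld2, on the opposite strand, from 126 to 108. Hsp90b1 held a pair of matches, from 212 to 194 and, on the opposite strand, from 107 to 89 bases before the start. The ERSE-II of Dnajb11 lay from 8 to 18 bases after the start, counting the first transcribed base as 1. The window of Pdia3 is shown as an example without a match, and its groups overlapped.
Pdia3, chr2:121413652-121413901 (+ strand): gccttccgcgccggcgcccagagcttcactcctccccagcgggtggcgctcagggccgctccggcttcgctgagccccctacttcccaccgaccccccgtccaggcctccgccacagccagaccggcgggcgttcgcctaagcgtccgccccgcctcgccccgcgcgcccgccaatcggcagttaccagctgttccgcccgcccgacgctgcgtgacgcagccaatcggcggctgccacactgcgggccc

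Pdia4 and Sdf2l1 also lacked an exact match in their windows. Of these, Pdia4 was called higher in the knockout (log2 fold change 0.68, edgeR adjusted p = 0.015) and Sdf2l1 was not called. Hsp90b1 and Dnajc3, which hold an ERSE, were not called either. The CCAAT pentamer alone occurred in all 9 windows and in 37.4% of all windows. Its partner CCACG occurred in 8 of the 9, all but Pdia3, and in 32.8% of all windows. Any exact ERSE or ERSE-II contains both boxes. The core of another XBP1 and ATF6 element, the UPRE (TGACG directly followed by TGG), was in none of the 9 windows and in 0.676% of all windows, which says only that these letters are not in the windows searched.

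**Figure D1:**
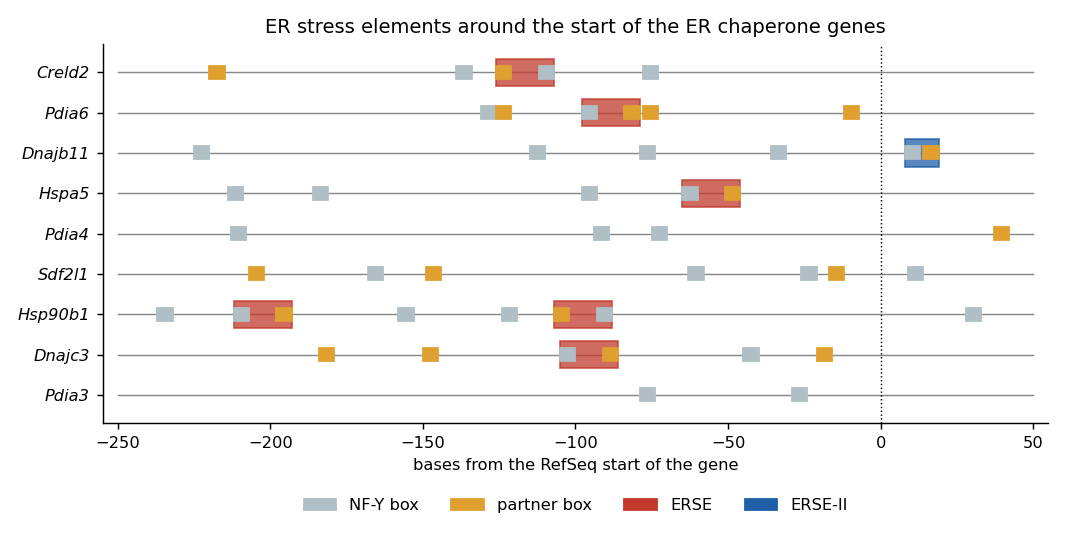
Positions of sequence elements from 250 bases before to 50 bases after the RefSeq start of 9 ER chaperone genes, in bases, ordered by the size of their rise in the knockout. Tall boxes mark an exact ERSE (5 genes, a pair in Hsp90b1) or ERSE-II (Dnajb11), and short boxes the NF-Y box (CCAAT pentamer) and its CCACG partner box on either strand. Pdia3, at the bottom, holds NF-Y boxes only.

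The comparison of knockout with wild type liver showed most of these chaperones at higher levels in the knockout. Of the 10 genes, all of which passed the filter on low counts, 6 rose (Creld2, Manf, Pdia6, Dnajb11, Hspa5 and Pdia4) and none fell, where 3.08% of all tested genes were called higher. None had an unadjusted p under 0.05 in the lower direction, and DESeq2 and limma-voom called 0 lower. The median log2 fold change over the 10 was 0.68, against 0.01 over all tested genes. In 8 of the 10 every knockout library lay above every wild type library, which held for 12.4% of all tested genes. Because the 10 were chosen with earlier results of these data known, these contrasts are descriptions and not tests. Without WT2, 3 of the 10 were called higher, and with KO2 as the only knockout library 6 were. Together the 10 genes took 0.314% to 0.357% of the reads in genes in wild type and 0.467% to 0.611% in the knockout.

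**Figure D2:**
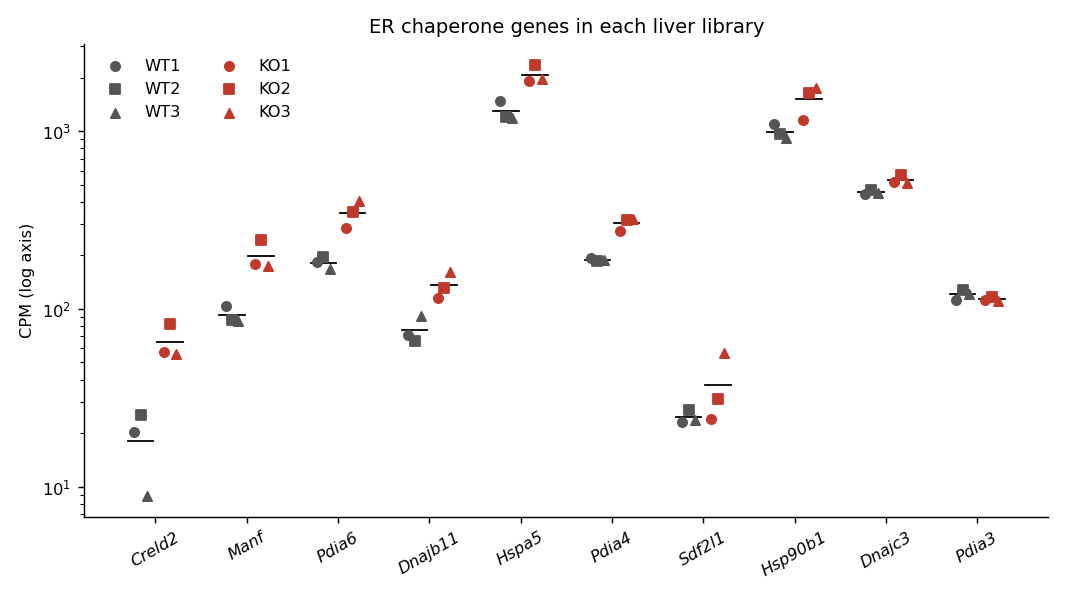
Level of each ER chaperone gene in each library, in CPM on a log axis, with wild type in grey, knockout in red, a symbol per replicate number and a black line at each group's mean. The groups are apart in 8 genes, while Sdf2l1 and Pdia3 overlap between groups.

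Hspa5 encodes BiP, the Hsp70 chaperone of the ER lumen that also holds the stress sensors inactive. Its level, in CPM (reads scaled to the library's reads in tested genes, with TMM), was 1477, 1206 and 1187 in WT1 to WT3 and 1925, 2339 and 1967 in KO1 to KO3. All knockout libraries were above all wild type ones, with the lowest knockout library 1.30 times the highest wild type one, and KO2 was the highest. The group means were 1290.2 ± 162 and 2077 ± 228 CPM (SD, n = 3 each), a 1.61-fold rise (log2 fold change 0.69, SE 0.16, edgeR quasi-likelihood adjusted p = 0.022). The call was lost without WT2 (adjusted p = 0.097), WT3 (0.13) or KO2 (0.066), and the log2 fold change over all alternatives stayed between 0.60 and 0.85.

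Hsp90b1 encodes GRP94, the Hsp90 chaperone of the ER. It stood at 1102, 959.6 and 911 CPM in WT1 to WT3 and at 1160.5, 1642 and 1747 CPM in KO1 to KO3. The groups did not overlap, but KO1 was only 1.05 times WT1, and KO2 and KO3 stood well above it. The rise from 991 ± 99.0 to 1517 ± 313 CPM (log2 fold change 0.62, SE 0.18) missed the threshold with edgeR (adjusted p = 0.058). It passed with DESeq2 (adjusted p = 0.024), without KO1 (0.011) and with KO2 as the only knockout library (0.039), while without WT3 the adjusted p was 0.23.

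Cochaperones of the J-domain family hand substrates to BiP. Dnajb11, also called ERdj3, binds unfolded proteins in the lumen. It measured 71.2, 66.1 and 90.9 CPM in WT1 to WT3 and 116, 130.3 and 161 CPM in KO1 to KO3. Every knockout library exceeded WT3, the highest wild type one, and KO3 was the highest of all. The rise was 1.79-fold (log2 fold change 0.84, SE 0.18, edgeR adjusted p = 0.015). It missed the threshold without WT1 (0.067) or WT2 (0.081) and with KO2 as the only knockout library (0.054).

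Dnajc3 encodes P58IPK, a lumenal cochaperone first described as an inhibitor of PERK. Its levels were 442, 466 and 450 CPM in WT1 to WT3 and 520.2, 569 and 513 CPM in KO1 to KO3. The groups did not overlap, with a coefficient of variation of 2.73% in wild type, less than counting alone gives for 1 library (3.78%). The log2 fold change of 0.24 did not pass (edgeR adjusted p = 0.38), and its 95% interval ran from -0.07 to 0.54, so that a rise of more than 1.46-fold lies outside it.

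The protein disulfide isomerases form and rearrange disulfide bonds in newly made proteins. Pdia6, known to act on IRE1 and on BiP clients, was at 184, 195 and 167 CPM in WT1 to WT3 and at 287, 350.1 and 404 CPM in KO1 to KO3. KO1, the lowest knockout library, was 1.47 times the highest wild type one. Its 1.91-fold rise (log2 fold change 0.93, SE 0.17, edgeR adjusted p = 0.0052) was called under every alternative tried, with adjusted p up to 0.046.

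Pdia4, also called ERp72, was at 193, 186 and 187 CPM in WT1 to WT3 and at 274, 315 and 319.7 CPM in KO1 to KO3. Its wild type libraries differed by less than the counting error of single libraries (coefficient of variation 2.06%, against 5.86% from counting alone). The rise was 1.60-fold (log2 fold change 0.68, SE 0.15, edgeR adjusted p = 0.015), and it missed the threshold without WT1, WT2 or WT3 (adjusted p = 0.0501, 0.067 and 0.086).

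Pdia3, or ERp57, works with calnexin and calreticulin on glycoproteins and in the loading of MHC class I. It was at 112, 128 and 122 CPM in WT1 to WT3 and at 111, 117 and 111 CPM in KO1 to KO3. The groups overlapped and their means were 120.6 ± 8.3 and 113 ± 3.1 CPM. The log2 fold change was -0.09 (SE 0.14, edgeR adjusted p = 0.77) with a 95% interval from -0.40 to 0.22, and a rise of more than 1.16-fold lies outside that interval.

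Creld2 and Manf encode small secreted or ER-held proteins that are known as sensitive transcriptional readouts of ER stress. Creld2 had 29, 38 and 15 reads in WT1 to WT3 and 92, 152 and 161 reads in KO1 to KO3. This was 20.3, 25.1 and 8.91 CPM against 57.0, 82.5 and 56.0 CPM, so the lowest knockout library was 2.23 times the highest wild type one. WT3 lay below the other wild type libraries, and its count of 15 has an exact 95% Poisson interval of 8.40 to 24.7 reads, which covers counting error only. With a rise of 3.62-fold, Creld2 moved most of the 10 (log2 fold change 1.86, SE 0.29, edgeR adjusted p = 0.0020), and its rank by log2 fold change was 82 among 9180 tested genes. Its log2 fold change lay between 1.51 and 2.20 over the alternatives, and it was called in all of them.

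Manf was at 104, 86.6 and 84.9 CPM in WT1 to WT3 and at 178, 243 and 175 CPM in KO1 to KO3. KO2 was again the highest, and KO1 and KO3 were close to each other at 1.68 times or more the level of WT1. The rise was 2.16-fold (log2 fold change 1.11, SE 0.17, edgeR adjusted p = 0.0020) and was called under every alternative, with adjusted p up to 0.024.

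Sdf2l1 forms a complex with Dnajb11 that keeps proteins from aggregating. It had 33, 41 and 40 reads in WT1 to WT3 and 39, 57 and 162 reads in KO1 to KO3, or 23.1, 27.1 and 23.8 against 24.2, 30.9 and 56.4 CPM. KO3 alone was far above wild type, while KO1 lay within the wild type range. The log2 fold change of 0.63 (SE 0.29) was not called (edgeR adjusted p = 0.24) and fell to 0.16 without KO3 (adjusted p = 0.77).

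**Figure D3:**
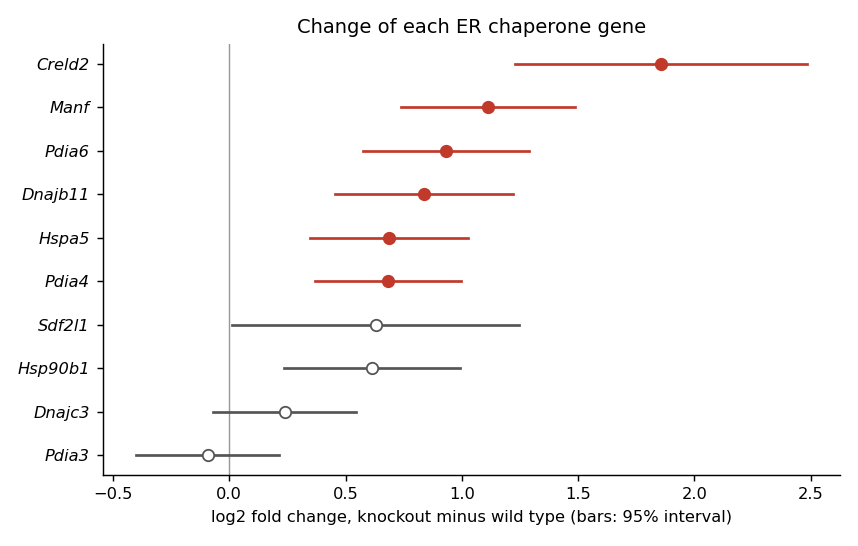
Log2 fold change of each ER chaperone gene, knockout minus wild type, with its 95% interval from the edgeR fit (3 libraries per group). Filled red points passed an adjusted p under 0.05 and open points did not. Creld2 is highest at 1.86 and Pdia3 is the only gene below 0.

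The 10 genes differed in which knockout library was highest. KO2 was highest for Hspa5, Pdia3, Creld2, Manf and Dnajc3, and KO3 for Hsp90b1, Pdia4, Pdia6, Sdf2l1 and Dnajb11. KO1 was highest for none and lowest of the 3 for 6 genes. As log2 differences from the wild type mean, with 1 CPM added, the median of the 10 was 0.56, 0.76 and 0.88 in KO1 to KO3. In KO1 8 of the genes exceeded every wild type library, and in KO2 and KO3 9 did.

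Scaled by the length of the annotated exons (GENCODE M21, CPM per kilobase), Hspa5 was the most abundant in wild type at 305 ± 38.4, followed by Hsp90b1 at 246 ± 24.6, Dnajc3 at 88.0 ± 2.4 and Pdia4 at 78.8 ± 1.6. Pdia6 (48.6 ± 3.8) and Pdia3 (38.4 ± 2.7) came next, then Manf (26.1 ± 3.0), Dnajb11 (23.5 ± 4.0) and Sdf2l1 (22.2 ± 2.0), whose library values overlapped with their neighbours. Creld2 was the lowest at 13.2 ± 6.1. In the knockout Creld2, at 47.7 ± 11.0 CPM per kilobase, had a higher mean than Dnajb11 (41.9 ± 7.1), Pdia3 (36.0 ± 1.0) and Sdf2l1 (33.5 ± 15.3), of which Dnajb11 and Sdf2l1 overlapped with it. The exons counted by the authors are not given in the sources used here, so these levels per length are approximate.

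Strand is not given either, so reads of genes that overlap on opposite strands cannot be told apart. Pdia6 shares 50 exon bases with Atp6v1c2, which had 1 to 4 reads per library, Hsp90b1 shares 415 with 1810014B01Rik (5 to 9 reads), and Pdia3 shares 18 with Catsper2 (2 to 13 reads). Manf, with 131 to 503 reads, shares 146 with Dcaf1, counted under its older symbol Vprbp with 58 to 109 reads. Manf also shares 166 exon bases with the antisense gene 4930524O07Rik, for which no counted symbol was found, so its reads are not known.

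The wider folding machinery of the ER had a lower median log2 fold change than the 10 chaperones (0.18 against 0.68), a difference that was not tested. Both lists were chosen with earlier results of these data known, so their contrast is a description only. Of 29 tested genes among 31 other ER chaperones and folding enzymes, 0 were called with edgeR in either direction, 5 had an unadjusted p under 0.05 and all of those were higher, and 21 had a positive log2 fold change. DESeq2 called 1 of them, Hyou1, and limma-voom 0. At an unadjusted p under 0.05, 10.3% of all tested genes were higher and 9.97% lower. Hyou1, the large Hsp70-like partner of BiP, was at 169, 158 and 171 CPM in WT1 to WT3 and at 206, 231 and 366 CPM in KO1 to KO3 (log2 fold change 0.69, SE 0.20, edgeR adjusted p = 0.062). It had KO3 as its highest library, as did the prolyl isomerase gene Fkbp11, at 5.95 to 7.72 CPM in wild type and 7.43, 9.23 and 28.5 CPM in KO1 to KO3 (log2 fold change 1.26, SE 0.48, edgeR adjusted p = 0.15).

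Genes for entry into the ER, signal peptide removal and N-glycosylation came with 29 of 31 tested. Srprb, a subunit of the signal recognition particle receptor, was the 1 that rose, with means of 13.6 ± 5.4 and 28.9 ± 4.7 CPM (log2 fold change 1.08, SE 0.28, edgeR adjusted p = 0.038), and none fell (0 with an unadjusted p under 0.05, and 0 with DESeq2 and limma-voom). A single call in 29 is near the 3.08% called higher among all tested genes. The call ended without WT1, WT2, KO2 or KO3 and with KO2 as the only knockout library. Of the list, 25 had a positive log2 fold change and its median was 0.17. At an unadjusted p under 0.05, 5 of the 29 were higher, where 10.3% of all tested genes were. In 8 of the 29 every knockout library lay above every wild type one and in 0 below, against 12.4% and 12.6% of all tested genes. ER-associated degradation, which returns misfolded proteins to the cytosol, had 23 of 24 genes tested and 0 called with edgeR, DESeq2 or limma-voom, with 3 higher and 0 lower at an unadjusted p under 0.05. Its median was 0.15. The lowest p among them belonged to H47 (selenoprotein S), at 36.9 ± 2.9 and 54.9 ± 6.8 CPM (log2 fold change 0.58, SE 0.18, edgeR adjusted p = 0.073), and Ubxn4, at 119 ± 3.0 and 170.4 ± 30.9 CPM (0.52, SE 0.16, adjusted p = 0.080).

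Among 14 tested sensors and transcription factors of the response, Nfyb, a subunit of NF-Y, was at 32.0 ± 2.9 CPM in wild type and rose to 51.4 ± 7.3 CPM in the knockout (log2 fold change 0.69, SE 0.19, edgeR adjusted p = 0.044). This call was not made with DESeq2 or limma-voom, with at least 1 CPM in 3 libraries, with KO2 as the only knockout library, or without WT1, WT2, WT3, KO2 or KO3, and none of the 14 fell (0 with an unadjusted p under 0.05 in that direction). Xbp1 was at 176, 138 and 166 CPM in WT1 to WT3 and at 215, 224 and 242 CPM in KO1 to KO3. Its groups did not overlap, with a log2 fold change of 0.51 (SE 0.15, edgeR adjusted p = 0.073), and spliced and unspliced Xbp1 cannot be told apart in counts per gene. Eif2ak3 was at 17.7 ± 1.6 and 28.9 ± 9.4 CPM (log2 fold change 0.70, adjusted p = 0.14) and was called higher with KO2 as the only knockout library (1.15, adjusted p = 0.027). Neither Atf6 nor Ern1 was called, with Atf6 at 115 ± 18.3 and 97.7 ± 13.0 CPM (-0.24, adjusted p = 0.48) and Ern1 at 50.3 ± 4.3 and 41.3 ± 0.2 CPM (-0.28, adjusted p = 0.37). The median of the list was -0.02. Beside the 1 of 14 called higher, the share over all tested genes was 3.08%. At an unadjusted p under 0.05, 4 of the 14 were higher, where 10.3% of all tested genes were. In 4 every knockout library lay above every wild type one and in 1 below, against 12.4% and 12.6% of all tested genes.

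The PERK branch acts through the factor ATF4 on amino acid metabolism. Of its 21 listed genes 8 passed the filter. Asns, the asparagine synthetase gene, was the 1 of these that rose, where 3.08% of all tested genes were called higher. It stood at 10.5, 15.2 and 11.9 CPM in WT1 to WT3 and at 32.8, 113 and 49.1 CPM in KO1 to KO3, with KO2 far above the others (log2 fold change 2.36, SE 0.41, edgeR adjusted p = 0.0042). Without KO2 its log2 fold change was 1.73 (adjusted p = 0.0032). Atf4 itself was at 118 ± 14.6 and 115 ± 15.8 CPM (log2 fold change -0.03, adjusted p = 0.95). The list's median was 0.01, which covers only the 8 tested genes of the 21. Ddit3, which encodes the ER stress factor CHOP, had too few reads to be tested, with 4, 7 and 2 in WT1 to WT3 and 5, 17 and 14 in KO1 to KO3. Other untested genes of the list had fewer reads in the knockout, such as Chac1, with 16, 9 and 17 in WT1 to WT3 and 5, 1 and 11 in KO1 to KO3, and Vldlr, with 11, 9 and 8 against 2, 4 and 5. When no filter was applied, Asns, Atf3 and Nupr1 were called higher and Chac1 and Vldlr lower, and with KO2 as the only knockout library Chac1 was called lower (adjusted p = 0.030). None of the 8 fell (0 with an unadjusted p under 0.05, and 0 with DESeq2 and limma-voom).

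Chaperones and proteases of mitochondria, which lie outside the ER, were followed for comparison. Of 16 tested, 0 were called with edgeR or limma-voom, while DESeq2 called Hspe1 higher and Clpx lower, and at an unadjusted p under 0.05 1 was higher and 3 were lower. Their median log2 fold change was -0.06. Hspe1, which encodes the partner of the chaperonin Hsp60, was at 341 ± 50.1 and 569.9 ± 198 CPM (log2 fold change 0.74, SE 0.22, edgeR adjusted p = 0.064).

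**Figure D4:**
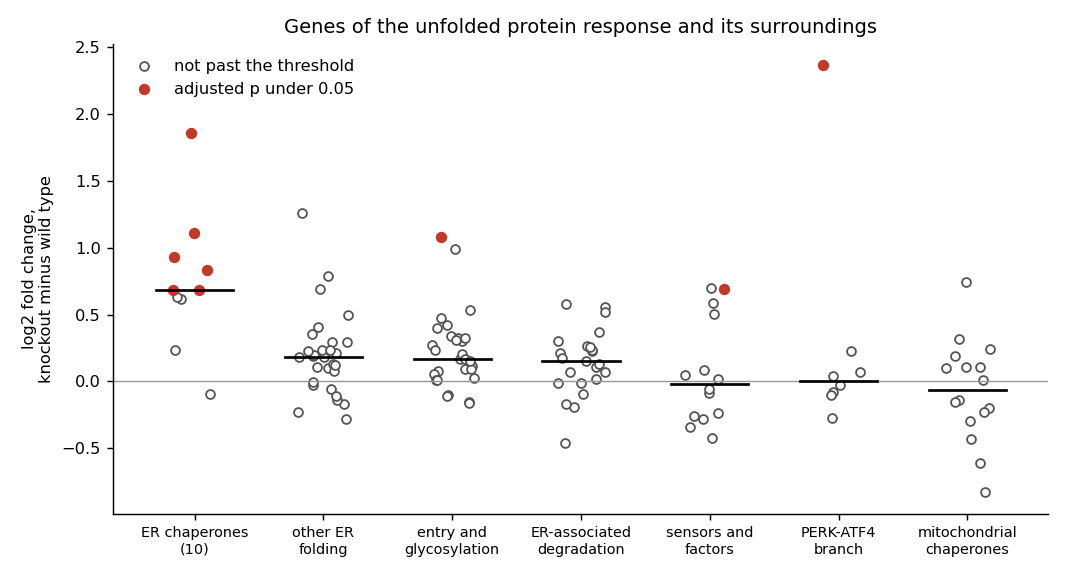
Log2 fold change, knockout minus wild type, of every tested gene in the ER chaperone set and in 6 lists around it, with the median of each as a black line. Filled red points passed an adjusted p under 0.05. The ER chaperone median is 0.68, while the medians of the 6 lists lie between -0.06 and 0.18. Cell type markers, not drawn here, had medians of 0.80 (Kupffer), 0.58 (stellate), -0.20 (endothelial) and -0.31 (hepatocyte).

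Genes were also taken by the presence of the element, after the expression values had been seen. Over all RefSeq windows, 49 genes held an exact ERSE or ERSE-II, of which 39 were matched in the count files and 21 were tested. Of the 6 that belong to the 10 chaperones, 4 rose, with Hsp90b1 and Dnajc3 not called, which repeats the calls given above. Of the 15 others, 1 rose (Acnat2) and 1 fell (Acacb, an acetyl-CoA carboxylase), against 3.08% and 2.65% of all tested genes. Their median log2 fold change was 0.02. At an unadjusted p under 0.05, 4 of the 15 were higher and 1 was lower, against 10.3% and 9.97% of all tested genes. The ER genes among the 15 included Calr, at 754 ± 85.9 and 1002 ± 234 CPM (log2 fold change 0.41, edgeR adjusted p = 0.22), Canx, at 740.5 ± 42.4 and 839 ± 26.7 CPM (0.18, adjusted p = 0.52), Syvn1, at 36.3 ± 6.0 and 54.0 ± 13.6 CPM (0.56, adjusted p = 0.17), and Herpud1, at 367 ± 70.3 and 322 ± 104 CPM (-0.19, adjusted p = 0.69).

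Markers of several cell types moved with the genotype beside the chaperones, and in whole liver a change in cell numbers and a change in RNA per cell cannot be told apart. Acinar cells of the pancreas are rich in ER, and 27 of their 30 counted markers were detected. Prss1, Try10 and Amy2a5 had no read in any library. The sum of the markers was 42.6, 17.2 and 12.5 CPM in WT1 to WT3 and 1271, 15.7 and 804 CPM in KO1 to KO3, and in KO2 Cpa1, Cpb1, Cel and Pnlip had no read. Cela1, the 1 acinar marker that passed the filter, was called higher (edgeR adjusted p = 0.046), though its knockout and wild type libraries overlapped. KO2, with acinar markers at the wild type level, was the highest knockout library for Hspa5, Pdia3, Creld2, Manf and Dnajc3. KO3, with acinar RNA, was the highest knockout library for Hsp90b1, Pdia4, Pdia6, Sdf2l1 and Dnajb11. KO1, with the largest acinar sum, was the highest knockout library for none of the chaperones and the lowest for 6. Some of these rankings were close. Pdia4 was at 315 CPM in KO2 and 319.7 CPM in KO3, and Pdia3 at 111, 117 and 111 CPM in KO1 to KO3. Pdia3 did not rise, and its 117 CPM in KO2 lay below WT2 (128 CPM) and WT3 (122 CPM). With KO2 as the only knockout library, in a fit that assumes it varies like the wild type libraries, Creld2, Manf, Pdia6, Hspa5, Pdia4 and Hsp90b1 were called higher, where 2.98% of 10116 tested genes were, and Dnajb11 missed the threshold (adjusted p = 0.054). The log2 fold changes of these 6 there lay between 0.73 (Pdia4 and Hsp90b1) and 2.20 (Creld2). Sdf2l1 was at its highest in KO3 and at the wild type level in KO1. The part of acinar RNA in the KO1 and KO3 values was not tested.

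Hepatocyte markers, 11 of 12 counted, summed to between 133346 and 147792 CPM in wild type and 94405 and 125037 CPM in the knockout, with KO2 the lowest. Cyp2e1 was the 1 called lower (6708 ± 176 to 2955 ± 974 CPM, edgeR adjusted p = 0.0040). Of the 11, 1 had a positive log2 fold change, and the median was -0.31. In 5 every knockout library lay below every wild type one, which held for 12.6% of all tested genes. At an unadjusted edgeR p under 0.05, 5 were lower and 0 higher, where 9.97% of all tested genes were lower. Kupffer cell markers, 15 of 15 detected, summed to between 265 and 493 CPM in wild type and 429, 784 and 774 CPM in KO1 to KO3. Of 14 tested, 3 were called higher, where 3.08% of all tested genes were. Among the 14, 13 had a positive log2 fold change, with a median of 0.80. At an unadjusted edgeR p under 0.05, 10 were higher, against 10.3% of all tested genes. Stellate cell markers, 12 of 12 detected, summed to between 534 and 579 CPM in wild type and 699 and 835 CPM in the knockout. Of 10 tested, 2 were called higher, against the same 3.08%, and all 10 had a positive log2 fold change, with a median of 0.58. Endothelial markers summed to between 590 and 632 CPM in wild type and 468 and 604 CPM in the knockout. Of 12 tested, 1 was called higher and 2 lower, against 3.08% and 2.65% of all tested genes. Their median log2 fold change was -0.20, and 4 were positive. The part of these shifts in the chaperone levels was not tested.

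Plasma cells, another cell type with a large ER, were scarcely represented. Their 10 markers, with those of B cells, summed to between 3.49 and 9.92 CPM in wild type and 3.72 and 9.77 CPM in the knockout, and none passed the filter. All 10 were detected in some library and 9 in KO3, with Igj, Ms4a1 and Irf4 the most abundant. Among them 2010001M09Rik (Mzb1) had no read outside KO3. Of 9 islet markers, 3 (Iapp, Pcsk2 and Sst) were detected, while Ins1, Ins2 and Gcg had no read in any library. The islet sum was 0.661 CPM in WT2, 1.39 CPM in KO3 and 0 in WT1, WT3, KO1 and KO2. Cholangiocyte markers summed to between 59.5 and 97.8 CPM in wild type and 94.1 and 137 CPM in the knockout, and 0 of 2 tested were called with edgeR (1 higher at an unadjusted p under 0.05).

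**Figure D5:**
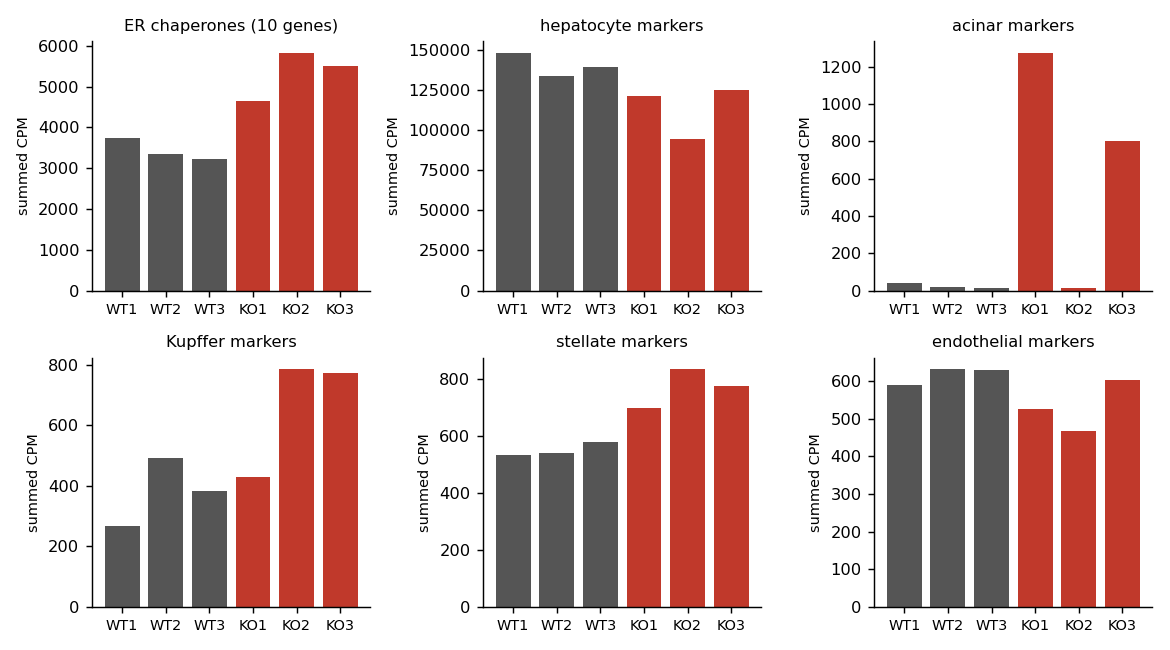
Summed CPM in each library of the 10 ER chaperone genes and of marker lists for hepatocytes, acinar cells, Kupffer cells, stellate cells and endothelial cells, with wild type in grey and knockout in red and each axis starting at 0. The chaperone sum is higher in all knockout libraries, while acinar markers reach 1271 and 804 CPM in KO1 and KO3 but 15.7 CPM in KO2.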

How the data were processed

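The authors deposited raw read counts per gene symbol for each of the 6 libraries. The build mm9 and the tools TopHat 1.4.1, HTSeq and edgeR are listed, with no roles, per the submitters' processing notes. Reads in no gene (93.3% to 95.8% of counted reads) and ambiguous reads were left out. The test was the quasi-likelihood F test of edgeR 4.0.16 (R 4.3.3, TMM, group as the only term, filterByExpr with a minimum count of 10), and adjusted p is by Benjamini-Hochberg over 9180 tested genes with a threshold of 0.05. Genes were grouped by the genotype in the sample titles.

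The genes described and the lists around them were chosen with earlier results of these data known. All 10 chaperones, the main sensors and factors, and from each list up to 4 called genes (or the 2 with the lowest p) are named; Dnajc3, Calr, Canx, Syvn1, Herpud1, Acnat2 and Acacb are also named for their ERSE, and Cyp2e1 as the called hepatocyte marker. Alternatives covered scaling, DESeq2 1.42.0, limma 3.58.1 (voom), filters, the replicate number as a block and libraries left out. Promoter windows are from RefSeq, GRCm38.p6, with starts that may differ from those of mm9.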

Additional observations from a re-analysis of the deposited data

How the results depend on the processing

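The count of ER chaperones called higher lay between 3 and 7 when 1 library was left out (3 without WT2) and was 6 or 7 under the other alternatives, and none was called lower in any. Called log2 fold changes kept their sign throughout. Over all genes the calls ranged from 127 to 409 higher and from 95 to 363 lower with 1 library left out, and without a filter they were 576 and 509, over 16989 genes. For the lists, leaving out 1 library gave 0 to 2 other folding genes, 0 to 1 degradation genes, 0 to 1 entry genes, 0 to 1 sensors and factors and 0 to 1 mitochondrial genes called higher, and 0 to 1 mitochondrial genes lower. Without a scaling factor the calls higher were 1 folding, 2 degradation, 2 sensor and 1 mitochondrial. DESeq2 gave 1 folding, 0 sensor and 1 mitochondrial gene higher and 1 mitochondrial gene lower, and limma-voom gave 0 sensors. Without a filter there were 3 folding, 3 ATF4 branch and 1 mitochondrial higher, and 2 ATF4 branch and 2 mitochondrial lower. With at least 1 CPM in 3 libraries 0 sensors were called. With KO2 as the only knockout library, 1 folding gene, 1 degradation gene and 0 entry genes were higher and 1 ATF4 branch gene was lower. The cause of these differences was not tested.

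The replicate number as a block left 6 chaperones called higher, with 1 folding gene (Dnajb9) and 0 sensors. Deviations of same-numbered libraries correlated at -0.07, 0.08 and 0.03 across genes, so the numbers were not taken to pair libraries. The fewest reads were those of Creld2 and Sdf2l1, with 15 to 38 and 33 to 41 in wild type, which sets their counting error.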
